A study of Homo sapiens with 18 samples.

Results

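Ezrin, radixin, moesin, merlin, the protein 4.1 family and the kindlins share a FERM domain, the fold with which they bind the inner face of the plasma membrane. The genes described here are 10 of that superfamily, EZR, RDX, MSN, NF2, EPB41, EPB41L2, EPB41L3, EPB41L4A, FERMT1 and FERMT2, chosen by name. They are read by 41 of the 41097 probe sets that the array annotation assigns to exactly 1 gene, and are 10 of 19775 such genes. All 10 genes and 30 of their 41 probe sets passed the filter on dim signals, which 14418 genes passed.

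The 18 arrays measured RNA of human osteosarcoma cells grown in mice. MNNG/HOS, called MNNG here, and 143B are cell lines that both descend from the HOS osteosarcoma line, and the cells of every group had been transduced with the fluorescent protein ZsGreen. Cells of orthotopic bone tumors were sorted by PKH26, a dye of the membrane that each division dilutes. The labels call the dye-retaining cells (High) tumor-initiating cells and the dye-diluted cells (Low) bulk tumor cells. There were 4 MNNG_High and 4 MNNG_Low arrays, each pair from 1 tumor (MNNG-1235, MNNG-1233, MNNG-1232 or MNNG-1231). There were 5 143B_Low arrays, from tumors 143B-1251 to 143B-1255, and 3 143B_High arrays, of which 1 was from tumor 143B-1253 and the pools 143B-51&52 and 143B-54&55 each combined a pair of tumors. A further 2 arrays (MNNG_Lung) came from lung metastases of MNNG, named MNNG-Lung 1233 and MNNG-Lung Mix (the 1233 and the Mix array below). The sources used here do not give whether the lung cells were sorted, of what the Mix array was made, or the age and strain of the mice.

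Ezrin, radixin and moesin (the ERM proteins) tie actin filaments to membrane proteins such as CD44, and ezrin is known in osteosarcoma for its link with metastasis to the lung. Merlin, the product of NF2, is a relative of the ERM proteins that restrains growth and acts upstream of the Hippo pathway. Protein 4.1 (EPB41) and its relatives hold spectrin and actin at the membrane, best known in the red cell, and EPB41L3 has been described as a tumor suppressor. Kindlins bind the tails of beta integrins and help to activate them: FERMT1 is the kindlin of epithelia, FERMT2 that of most adherent cells, and FERMT3, not a member here, that of blood cells.

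Values are log2 probe set signals, in which 1 unit is a doubling. The probe set with the highest mean signal stands for each gene, and levels of different genes are not compared, because probe sets differ in how strongly they bind. A difference is given in log2 units as estimate ± standard error of the limma fit, and is called where the Benjamini-Hochberg adjusted p over all 14418 genes was below 0.05. The filter asked for a log2 signal of 5.36, the table's median, on at least 3 arrays. A group whose mean lies under it is in the lower part of the table's signals, just under the middle or far below it. A difference from such a group is read as a direction of uncertain size.

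The arrays of the bone tumor groups correlated at r of 0.956 to 0.995 with arrays of their own group, and the lung arrays at 0.865 with each other. Mean signals were all between 5.74 and 5.77, but the interquartile range of the signal differed: it was 2.09 and 2.28 in lung, from 2.76 to 3.18 over MNNG_High and from 3.29 to 3.40 over MNNG_Low, 3.26 to 3.34 in 143B_High and 3.30 to 3.48 in 143B_Low. Of the osteosarcoma markers checked, RUNX2 had a mean of 8.66 to 10.50 and COL1A1 of 10.52 to 13.83 in the bone groups, and ALPL, SP7 and IBSP lay under 5.36 there. On the lung arrays RUNX2 had a mean of 6.68 and COL1A1 of 8.98, while ALPL at 6.04, SP7 at 6.38 and IBSP at 6.58 were above their means in every bone group, and did not pass the filter for the test. The descriptions carry 3 date tags: 1 for the MNNG_Low arrays of MNNG-1232, MNNG-1233 and MNNG-1235, another for all other MNNG arrays, and the third for all 143B arrays, so the line and the tag cannot be told apart.

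**Figure D1:**
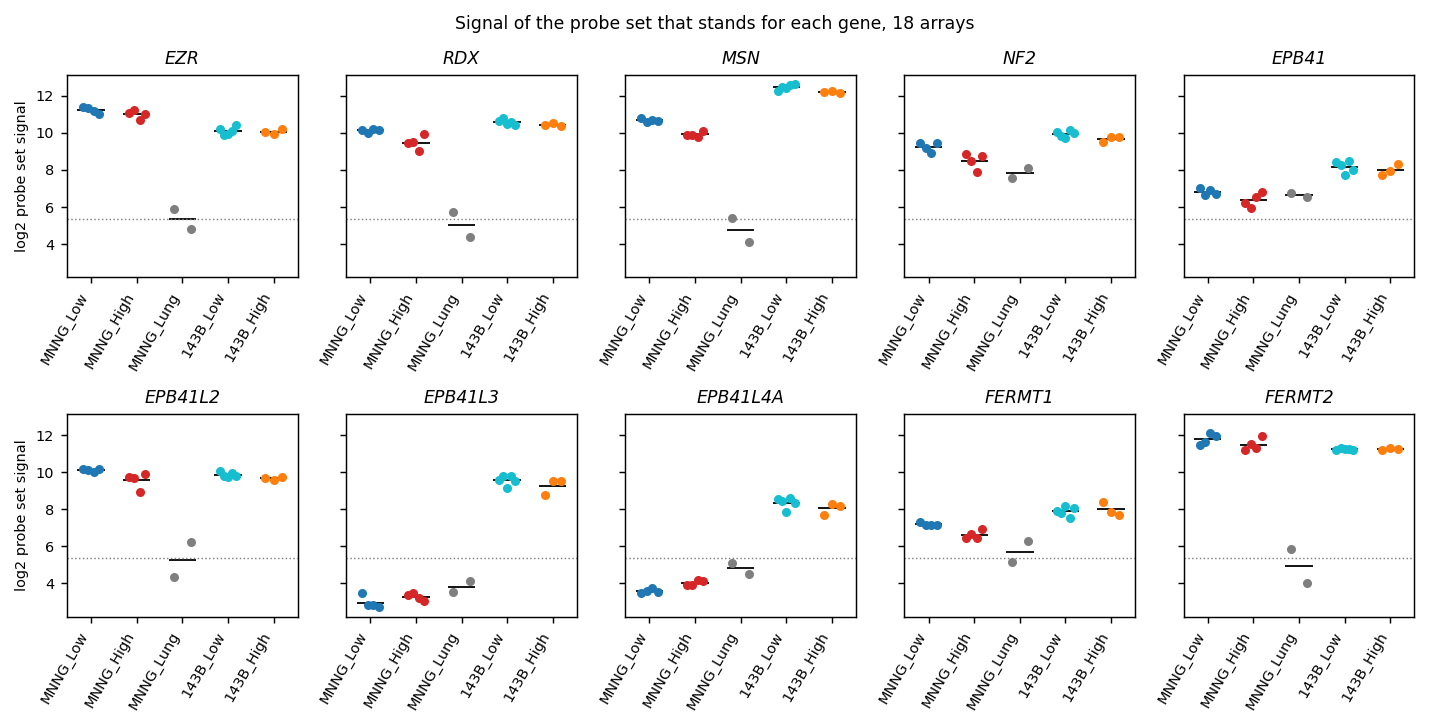
Log2 probe set signal (vertical axis) of each of the 10 genes on each array (points) by group, with the group mean as a bar and the filter of 5.36 as a dotted line. EPB41L3 and EPB41L4A lie under the filter on every MNNG array, lung included, and above it on every 143B array, while EZR, RDX, MSN, EPB41L2 and FERMT2 drop on both lung arrays.

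The comparison of the lines asked how these genes differ between MNNG and 143B tumor cells of the same fraction. In the Low cells 6 of the 10 genes were higher in 143B (MSN, NF2, EPB41, EPB41L3, EPB41L4A and FERMT1), where 14.4% of all genes were called higher, and 1 was lower (EZR), where 14.5% were. In the High cells the same 6 and RDX were higher, 7 of 10 beside 21.4% of all genes, and EZR was again the 1 lower, beside 14.7%. The median difference of the members was 0.70 in Low and 1.28 in High cells, beside -0.04 and 0.01 over all genes. EPB41L3 and EPB41L4A were higher in 143B by 4.02 to 6.60 log2 units, against MNNG levels under the filter, which leaves the size uncertain. Both passed the filter only through the 143B arrays, where they were high. Their calls as higher in 143B therefore add no support to the counts and medians above, which include them.

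EPB41L3 encodes protein 4.1B, which binds cell adhesion molecules such as CADM1. Its signals in MNNG_Low were 3.48, 2.85, 2.82 and 2.70, and in MNNG_High 3.38, 3.45, 3.23 and 3.06. In 143B_Low they were 9.56, 9.82, 9.14, 9.78 and 9.51, and in 143B_High 8.79, 9.51 and 9.52. Every 143B array was thus far above every MNNG array, and the MNNG arrays were all under the filter. The difference was 6.60 ± 0.20 in Low cells (adjusted p = 5.06e-14) and 5.99 ± 0.23 in High cells (adjusted p = 1.82e-12). All 3 probe sets of the gene passed the filter and were called in both fractions, at 5.62 to 6.60 in Low and 4.64 to 5.99 in High cells.

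EPB41L4A encodes a smaller relative of protein 4.1 whose function is less well described. Its signals in MNNG_Low were 3.48, 3.58, 3.75 and 3.56, and in MNNG_High 3.91, 3.89, 4.19 and 4.15. In 143B_Low they were 8.57, 8.45, 7.83, 8.62 and 8.35, and in 143B_High 7.71, 8.29 and 8.15. The lines again did not overlap, and the MNNG arrays were under the filter. The difference was 4.77 ± 0.17 in Low cells (adjusted p = 3.49e-13) and 4.02 ± 0.19 in High cells (adjusted p = 4.97e-11). Only 1 of its 4 probe sets passed the filter. The others were not tested and had means under the filter in every group, 143B included. Their means were 3.37, 4.82 and 3.66 in 143B_Low, beside 2.70, 4.47 and 3.13 in MNNG_Low. A difference of the size above was thus seen on 1 probe set only.

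The upstream sequences of EPB41L3 and EPB41L4A, the pair under the filter in MNNG and above it in 143B, are shown with that of EZR, the member that was lower in 143B. Each is the 250 bases before the gene's most upstream start in the promoter table, 5′ to 3′ on the gene's own strand, from RefSeq, GRCh38.p14, with CpG pairs in capitals. EPB41L3 is at chr18:5628992-5629241, EPB41L4A at chr5:112419278-112419527 and EZR at chr6:158818236-158818485, all on the minus strand. The annotated genes themselves reach further upstream, to 5630663, 112419935 and 158819368, so all 3 windows lie inside them.

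EPB41L3: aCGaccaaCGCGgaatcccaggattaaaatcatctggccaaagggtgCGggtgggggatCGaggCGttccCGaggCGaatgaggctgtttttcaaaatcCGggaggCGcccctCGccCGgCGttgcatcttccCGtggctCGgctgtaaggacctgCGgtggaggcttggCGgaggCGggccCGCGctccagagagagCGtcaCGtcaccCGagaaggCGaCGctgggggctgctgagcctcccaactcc

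EPB41L4A: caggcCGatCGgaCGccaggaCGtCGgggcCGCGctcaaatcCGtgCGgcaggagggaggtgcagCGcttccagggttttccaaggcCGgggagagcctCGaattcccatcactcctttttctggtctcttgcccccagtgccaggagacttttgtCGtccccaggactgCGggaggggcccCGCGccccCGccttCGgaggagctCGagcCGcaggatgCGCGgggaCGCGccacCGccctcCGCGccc

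EZR: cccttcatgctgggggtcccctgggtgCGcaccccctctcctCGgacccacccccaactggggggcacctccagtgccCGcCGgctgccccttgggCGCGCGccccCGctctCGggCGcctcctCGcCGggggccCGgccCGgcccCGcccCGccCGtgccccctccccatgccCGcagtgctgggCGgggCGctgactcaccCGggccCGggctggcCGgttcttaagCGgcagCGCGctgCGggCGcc

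All 3 windows were rich in CpG. The EPB41L3 window held 25 CpG pairs with a GC content of 65.2%, EPB41L4A 27 with 70% and EZR 28 with 80.8%, beside a median of 11 over the 35116 windows of the table. The ratio of observed to chance CpG was 0.949, 0.882 and 0.706. As many CpG pairs or more were found in 21.6% of windows for the count of EPB41L3, 17.7% for that of EPB41L4A and 15.9% for that of EZR. The GC box GGGCGG, searched on both strands and itself holding a CpG, was found 0 times in the EPB41L3 window, 1 time in that of EPB41L4A and 3 times in that of EZR, and 42.6% of all windows held it. EPB41L3 has 4 starts in the table, and the arrays do not tell which was used. The table matched 9 of the 10 genes and held none for FERMT1.

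**Figure D2:**
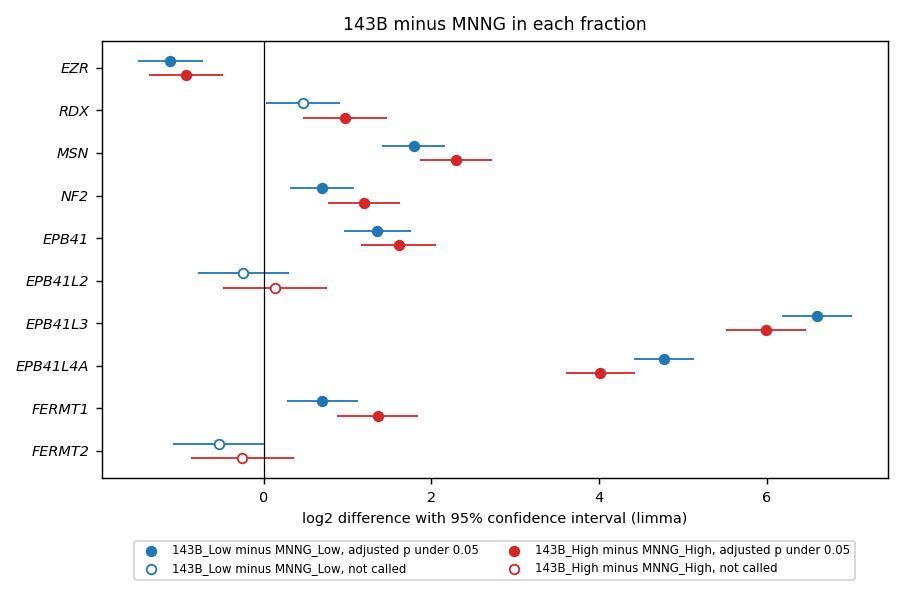
Difference between the lines, 143B minus MNNG, in log2 units (horizontal axis) with its 95% confidence interval from limma, for each gene in Low cells (blue) and High cells (red). Filled points have an adjusted p below 0.05; EPB41L3 and EPB41L4A lie at 4.02 to 6.60, EZR is the only gene called below 0, and EPB41L2 and FERMT2 are open in both fractions.

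The ERM genes differed between the lines in opposite directions. MSN encodes moesin, the ERM protein that leukocytes and endothelium also carry in quantity. Its signals were 10.82, 10.60, 10.72 and 10.62 in MNNG_Low and 12.29, 12.46, 12.41, 12.57 and 12.66 in 143B_Low, with no overlap. In the High cells they were 9.90, 9.89, 9.78 and 10.12 in MNNG and 12.22, 12.25 and 12.18 in 143B. All 143B arrays were above all MNNG arrays. The difference was 1.79 ± 0.18 in Low (3.45-fold, adjusted p = 4.98e-07) and 2.29 ± 0.21 in High cells (4.90-fold, adjusted p = 1.69e-07).

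EZR encodes ezrin. Its signals were 11.43, 11.33, 11.20 and 11.05 in MNNG_Low and 10.22, 9.90, 9.95, 10.13 and 10.45 in 143B_Low. In the High cells they were 11.09, 11.23, 10.69 and 11.03 in MNNG and 10.05, 9.96 and 10.21 in 143B. Here every 143B array was below every MNNG array of the bone tumors. The difference was -1.12 ± 0.19 in Low (2.17-fold lower in 143B, adjusted p = 0.000129) and -0.93 ± 0.21 in High cells (1.91-fold lower, adjusted p = 0.00239). In Low cells 4 of its 5 probe sets were called lower, at -1.63 to -1.12, and in High cells 3 of 5. The dimmest probe set, the only one of EZR whose name lacks the suffix that marks probe sets matching several transcripts, had -0.28 in Low and -0.32 in High cells and was not called. With the probe sets so marked left out, the EZR calls were therefore lost (adjusted p = 0.348 and 0.274).

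RDX encodes radixin. Its signals were 10.18, 9.99, 10.20 and 10.16 in MNNG_Low and 10.67, 10.79, 10.50, 10.60 and 10.45 in 143B_Low. Those of the High cells were 9.43, 9.53, 9.04 and 9.92 in MNNG and 10.41, 10.54 and 10.40 in 143B. The groups did not overlap in either fraction. The difference was 0.97 ± 0.24 in High cells (1.96-fold, adjusted p = 0.00462), where 3 of its 3 tested probe sets were called, at 0.97 to 1.37. In Low cells it was 0.47 ± 0.21 (adjusted p = 0.109) and was called with the lung arrays left out of the fit (adjusted p = 0.0123). A second quantile normalization, which gives every array the same distribution of signals, ended the call in High cells (adjusted p = 0.0537).

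NF2, the merlin gene, had signals of 9.47, 9.20, 8.93 and 9.43 in MNNG_Low and 10.07, 9.85, 9.72, 10.14 and 10.01 in 143B_Low. Those of the High cells were 8.84, 8.48, 7.90 and 8.75 in MNNG and 9.53, 9.77 and 9.77 in 143B. The lines did not overlap in either fraction. The difference was 0.70 ± 0.18 in Low (1.62-fold, adjusted p = 0.00668) and 1.20 ± 0.21 in High cells (2.29-fold, adjusted p = 0.000245). Of its 6 tested probe sets 3 were called higher in Low and 4 in High cells, and none lower.

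EPB41, the founding protein 4.1 gene, had signals of 7.04, 6.66, 6.91 and 6.68 in MNNG_Low and 8.42, 8.27, 7.71, 8.47 and 8.02 in 143B_Low. High cells had 6.22, 5.94, 6.55 and 6.80 in MNNG and 7.72, 7.92 and 8.32 in 143B. Every 143B array was above all MNNG arrays. The difference was 1.36 ± 0.19 in Low (2.56-fold, adjusted p = 2.07e-05) and 1.61 ± 0.21 in High cells (3.05-fold, adjusted p = 1.64e-05). The other tested probe set of EPB41 had 0.33 ± 0.15 in Low and 0.17 ± 0.17 in High cells and was not called, so the probe sets of the gene disagreed in size.

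EPB41L2 encodes the broadly expressed protein 4.1G and was not called between the lines. Its signals were 10.19, 10.10, 10.02 and 10.17 in MNNG_Low and 10.04, 9.81, 9.75, 9.96 and 9.79 in 143B_Low, and those groups overlapped. The difference was -0.25 ± 0.26 in Low cells, with a 95% interval of -0.79 to 0.30, and 0.13 ± 0.29 in High cells, with an interval of -0.49 to 0.75.

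FERMT1, kindlin-1, had signals of 7.30, 7.16, 7.17 and 7.14 in MNNG_Low and 7.93, 7.80, 8.16, 7.50 and 8.05 in 143B_Low. In the High cells they were 6.46, 6.68, 6.45 and 6.96 in MNNG and 8.39, 7.87 and 7.71 in 143B, and neither pair of groups overlapped. The difference was 0.70 ± 0.20 in Low (1.62-fold, adjusted p = 0.0134) and 1.36 ± 0.23 in High cells (2.56-fold, adjusted p = 0.000190). The call in Low cells was lost after a second quantile normalization (adjusted p = 0.0810) and with the GAPDH signal described further on as a covariate (adjusted p = 0.0710). Of the 6 tested markers of squamous and simple epithelium 0 were called higher and 2 lower in 143B_Low, with a summed linear level of 1387 to 2021 in MNNG_Low and 622 to 971 in 143B_Low. The list of lung epithelium markers, which holds EPCAM and KRT18, went the other way, with 2 of 10 called higher and 1 lower in 143B_Low and sums of 4626 to 4866 in MNNG_Low and 8636 to 9440 in 143B_Low. The part of either in the FERMT1 difference was not tested.

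FERMT2, kindlin-2, was at 11.49, 11.63, 12.11 and 11.97 in MNNG_Low and at 11.21, 11.33, 11.24, 11.27 and 11.23 in 143B_Low. Those groups did not overlap, but the difference of -0.54 ± 0.26 was not called (adjusted p = 0.130). It was called with the lung arrays left out of the fit (adjusted p = 0.00675). In High cells the difference was -0.26 ± 0.29, with a 95% interval of -0.88 to 0.35. Within 143B the 8 arrays lay between 11.19 and 11.33.

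The comparison of High with Low cells of MNNG asked which genes differ in the dye-retaining fraction. MSN, NF2 and RDX were lower in MNNG_High, by 1.70-fold, 1.70-fold and 1.57-fold, so 3 of 10 members were called lower, beside 15.5% of all genes. None was called higher, beside 10.6% of all genes. The estimates of 8 of the 10 members were below 0, and the median was -0.50 beside -0.19 over all genes.

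The MSN signals in MNNG_High, 9.90, 9.89, 9.78 and 10.12, were all below the lowest MNNG_Low signal of 10.60. The difference was -0.77 ± 0.19 (adjusted p = 0.0124). Within the tumors it was -0.92 in MNNG-1231, -0.71 in MNNG-1232, -0.94 in MNNG-1233 and -0.50 in MNNG-1235, so that MSN was lower in the High cells of 4 of 4 tumors. MSN was measured here by 1 probe set that passed the filter.

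NF2 in MNNG_High, at 7.90 to 8.84, was below all MNNG_Low arrays, at 8.93 to 9.47. The difference was -0.77 ± 0.19 (adjusted p = 0.0127), and within the tumors it was -0.63, -0.72, -1.03 and -0.68. NF2 was thus lower in 4 of 4 tumors. Of its 6 tested probe sets 3 were called lower, at -1.08 to -0.70, and none higher.

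RDX in MNNG_High, at 9.04 to 9.92, was below all MNNG_Low arrays, at 9.99 to 10.20. The difference was -0.65 ± 0.22 (adjusted p = 0.0398), with -0.75, -0.46, -1.16 and -0.24 within the tumors. Of its 3 tested probe sets 2 were called lower. The RDX call was kept without the MNNG_High array of MNNG-1235 and lost without any other of the 8 arrays, the other 3 of MNNG_High and all 4 of MNNG_Low (adjusted p of 0.0536 to 0.135), and also as the mean over its probe sets (-0.46, adjusted p = 0.0640).

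The other members were not called. FERMT1 had -0.56 ± 0.21 (adjusted p = 0.0584) and EPB41L2 -0.56 ± 0.27 (adjusted p = 0.121), both lower in 4 of 4 tumors and without overlap of the groups. Of the probe sets of EPB41L2, 1 of 3 was called lower (-0.62 ± 0.22, adjusted p = 0.0475). EPB41 had -0.44 ± 0.20 (adjusted p = 0.0976), FERMT2 -0.30 ± 0.27 (adjusted p = 0.384) and EZR -0.24 ± 0.20 (adjusted p = 0.332). Of the EZR probe sets 1 of 5 was called lower, at -0.50 ± 0.16 (adjusted p = 0.0318). The pair that was under the filter in MNNG pointed upward, EPB41L4A at 0.44 ± 0.18 (adjusted p = 0.0709) in 4 of 4 tumors and EPB41L3 at 0.32 ± 0.21 (adjusted p = 0.243) in 3 of 4.

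The number of members called moved with how the spread was modelled. With the tumor as a replicate block and the lung arrays left out, 8 were called: MSN, NF2, RDX, EPB41, EPB41L2 and FERMT1 lower, and EPB41L3 and EPB41L4A higher. The tumor numbers come from the labels, so this is the paired comparison. In MNNG-1232, MNNG-1233 and MNNG-1235 the High and Low arrays also carry different date tags, so within those pairs fraction and tag cannot be told apart. With the lung arrays left out and no block, 6 were called, EPB41L4A as higher and the others as lower. The size of each difference was the same in these fits. The share of all genes called in them was not counted, so the larger counts are not shown to be particular to the members. After a second quantile normalization none was called (MSN -0.50, adjusted p = 0.179). None was called either when the date tag was a covariate (MSN -0.90, adjusted p = 0.213); that fit compares the High arrays with the 1 MNNG_Low array of the same tag, from tumor MNNG-1231.

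Other measures of the MNNG_High arrays moved with these differences. Their signals had a narrower interquartile range, and for RDX and MSN the tumors with the narrower ranges had the larger falls: MNNG-1233 at 2.76 and MNNG-1231 at 2.84 had -1.16 and -0.75 for RDX, whereas MNNG-1232 at 3.07 and MNNG-1235 at 3.18 had -0.46 and -0.24. NF2 did not follow that order, with -0.63 in MNNG-1231 and -0.68 in MNNG-1235. Of the members that pointed downward without a call, EZR, EPB41L2 and FERMT2 followed the order of RDX and MSN, and EPB41 and FERMT1 did not. The GAPDH control signal at the 3′ end minus that at the 5′ end, a measure of RNA integrity, was 0.500 to 0.749 in MNNG_High and 0.343 to 0.412 in MNNG_Low. With it as a covariate only NF2 was called, and MSN had -0.56 (adjusted p = 0.0568). Over all genes 10.6% were called higher, a share to be set beside the marker counts that follow. Macrophage and myeloid markers were called higher for 4 of 9 tested, with a summed linear level of 1879 to 2909 in MNNG_High and 1466 to 1983 in MNNG_Low. The sum in MNNG_Low leans on LAPTM5, the brightest of the list there, whose mean was 10.12 in MNNG_Low and 9.72 in MNNG_High. PTPRC had means of 4.06 in MNNG_High and 3.23 in MNNG_Low, both under the filter. Skeletal muscle markers were called higher for 3 of 5, with sums of 508 to 602 and 418 to 425, fibroblast markers for 2 of 7 and osteosarcoma markers for 0 of 7. The part of other cell types in the differences was not tested, and in sorted bulk RNA fewer cells of a type and less RNA per cell cannot be told apart.

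**Figure D3:**
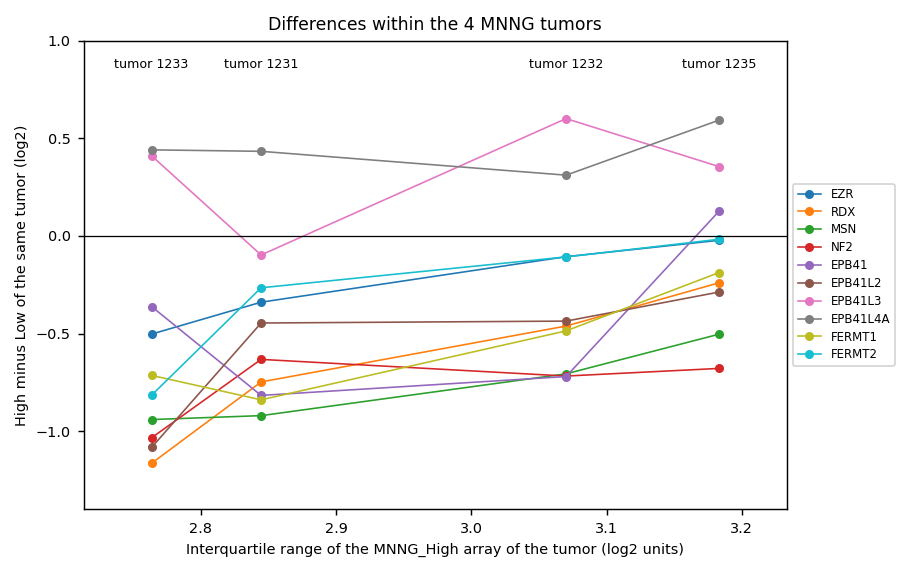
Difference High minus Low within each of the 4 MNNG tumors in log2 units (vertical axis) against the interquartile range of that tumor's High array (horizontal axis), with 1 line per gene joining its 4 tumors. MSN, NF2 and RDX lie below 0 in all 4 tumors, EPB41L4A lies above 0 in all 4, and RDX runs from -1.16 in MNNG-1233 to -0.24 in MNNG-1235.

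In 143B none of the 10 members was called between High and Low cells by limma, beside 0.00694% of all genes called higher (1 of 14418) and 0% lower. At an unadjusted p below 0.05 there were 0 of 10 members and 745 of 14418 genes. The estimates of 9 of 10 members were below 0, with a median of -0.19 beside -0.02 over all genes. MSN had -0.26 ± 0.20, with a 95% interval of -0.68 to 0.15, and its 143B_High arrays (12.18 to 12.25) were all below the 143B_Low arrays (12.29 to 12.66). EPB41L2 had -0.19 ± 0.28, and its 143B_High signals of 9.70, 9.60 and 9.75 reached up to, but not past, the lowest 143B_Low signal, also 9.75. NF2 had -0.27 ± 0.20, EPB41L3 -0.29 ± 0.22 and EPB41L4A -0.31 ± 0.19. The other estimates were between -0.19 and 0.10. Another probe set of EPB41L3 had -0.68 ± 0.18 without overlap of the groups, but no probe set of the members was called (adjusted p by limma = 0.450 for that one). Within tumor 143B-1253, the only 143B tumor with unpooled arrays of both fractions, MSN had -0.19, NF2 -0.19, EPB41L3 -0.35 and FERMT1 0.24.

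The interaction term asked whether the High minus Low difference itself differed between the lines. By limma it was called for none of the members, beside 0% of all genes called higher and 0.00694% lower. At an unadjusted p below 0.05 there were 2 members, beside 1449 of 14418 genes. EPB41L4A had -0.76 ± 0.26 (unadjusted p = 0.00889, adjusted p = 0.455) and FERMT1 0.66 ± 0.30 (unadjusted p = 0.0433, adjusted p = 0.492). MSN had 0.51 ± 0.27, with a 95% interval of -0.07 to 1.08. Among other probe sets of the members, 1 of EPB41L3 had -1.12 ± 0.25 (adjusted p = 0.430) and 1 of RDX 1.01 ± 0.30 (adjusted p = 0.487). None of the members' probe sets was called. The calls in MNNG and their absence in 143B are therefore not shown to be a difference between the lines.

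**Figure D4:**
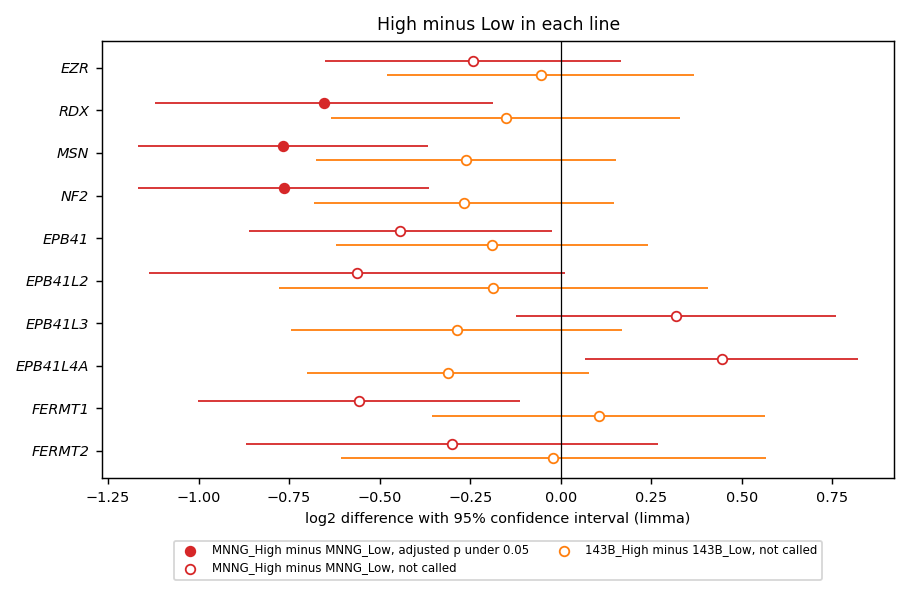
Difference High minus Low in log2 units (horizontal axis) with its 95% confidence interval from limma, for each gene in MNNG (red) and 143B (orange); filled points have an adjusted p below 0.05. RDX, MSN and NF2 are filled in MNNG, at -0.65 to -0.77, no gene is filled in 143B, where the estimates run from -0.31 to 0.10.

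The lung arrays of MNNG were compared with MNNG_Low and MNNG_High bone tumor cells. FERMT2, MSN, EZR, RDX and EPB41L2 were lower on the lung arrays than in MNNG_Low, with log2 differences of -6.87 to -4.83 and lung means under the filter, so that the sizes are uncertain. FERMT1 and NF2 were 2.79-fold and 2.65-fold lower, and the probe set that stands for EPB41 did not pass the test. So 7 of 10 members were called lower than in MNNG_Low, beside 51.9% of all genes, and 2 higher, beside 35.1%. Against MNNG_High 7 were called lower, beside 47.6% of all genes, and 1 higher, beside 34.8%. The median of the members was -3.16 and -2.60 in these comparisons, beside -0.64 and -0.37 over all genes. Both comparisons use the same pair of lung arrays.

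FERMT2 was at 5.87 on the 1233 array and 3.99 on the Mix array, far below its MNNG_Low signals of 11.49 to 12.11. The difference was -6.87 ± 0.33 (adjusted p = 1.06e-12). MSN was at 5.42 and 4.12 (-5.92 ± 0.23, adjusted p = 8.93e-14). EZR was at 5.90 and 4.80 (-5.90 ± 0.24, adjusted p = 1.24e-13). On the probe sets that stand for them, all 3 genes were thus under or near the filter on both lung arrays. There the lung arrays did not overlap the bone tumor arrays. Other probe sets of these genes had lung means above the filter, up to 8.15 for EZR, 7.63 for FERMT2 and 6.10 for MSN. RDX was at 5.74 and 4.35 (-5.09 ± 0.27, adjusted p = 4.00e-12), and EPB41L2 at 4.35 and 6.22 (-4.83 ± 0.33, adjusted p = 1.51e-10). After the second quantile normalization, in which the probe set that stands for a gene was chosen anew, EZR had -1.22 against MNNG_Low. Against MNNG_High it had -1.17, and both were called (adjusted p = 0.000421 and 0.000667). For High minus Low in 143B that fit gave EZR 0.48, near the 0.43 of another EZR probe set and unlike the -0.06 of the one used here. For EZR a change of probe set and the scaling therefore cannot be told apart. The other 4 stayed between -7.05 and -4.81 against MNNG_Low in that fit.

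The 2 lung arrays did not rank alike: the Mix array was the lower for EZR, RDX, MSN and FERMT2 and the higher for EPB41L2, NF2, FERMT1 and EPB41L3. FERMT1 was at 5.15 and 6.27 (-1.48 ± 0.26, adjusted p = 3.20e-05) and NF2 at 7.57 and 8.13 (-1.41 ± 0.23, adjusted p = 1.78e-05). Against MNNG_High the NF2 groups overlapped (-0.64 ± 0.23, adjusted p = 0.0170). That NF2 call was lost without the 1233 array (-0.37, adjusted p = 0.239), and FERMT1 then also missed the threshold against MNNG_High (-0.37, adjusted p = 0.199). As the mean over its probe sets FERMT1 had -0.14 against MNNG_Low and was not called (adjusted p = 0.382). EPB41 was at 6.78 and 6.56, the first within and the second just below the MNNG_Low range of 6.66 to 7.04. The difference was -0.16 ± 0.24, with a 95% interval of -0.67 to 0.36. The other tested probe set of EPB41 was called higher in lung (0.64 ± 0.19, adjusted p = 0.00387). As the mean over its probe sets EPB41 was called higher than in MNNG_Low (0.87, adjusted p = 2.35e-06) and than in MNNG_High (0.73, adjusted p = 2.29e-05). It also passed against MNNG_High after the second quantile normalization (0.53, adjusted p = 0.0499), so its lung result depends on the probe set and the scaling.

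EPB41L4A, at 5.10 and 4.51, and EPB41L3, at 3.52 and 4.14, were higher than in MNNG_Low, by 1.21 ± 0.22 (adjusted p = 4.75e-05) and 0.86 ± 0.26 (adjusted p = 0.00451), with all group means under the filter. Both stayed below every 143B array. The EPB41L3 call was lost without the Mix array (0.55, adjusted p = 0.107), when the date tag was a covariate (0.35, adjusted p = 0.344), after the second quantile normalization (0.22, adjusted p = 0.398) and median centring (0.48, adjusted p = 0.0855), with array weights (adjusted p = 0.278) and with the GAPDH covariate (adjusted p = 0.0515). That of EPB41L4A was lost with array weights (adjusted p = 0.0605). Against MNNG_High EPB41L4A was called (0.77 ± 0.22, adjusted p = 0.00364) and lost without the 1233 array (0.47, adjusted p = 0.0997), after the second quantile normalization (0.27, adjusted p = 0.282) and with array weights (adjusted p = 0.186). EPB41L3 was not called there (0.54 ± 0.26, adjusted p = 0.0587), but passed with the tumor as a random replicate block (adjusted p = 0.0422) and without the 1233 array (0.85, adjusted p = 0.0187).

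The probe sets of a gene disagreed in size in the lung comparison, and for EZR, EPB41L2 and FERMT1 probe sets were called in opposite directions. Of all 26556 tested probe sets 9317 were called higher and 13097 lower than in MNNG_Low. Calls in either direction were thus common and are not shown to be particular to these genes. Of the 5 EZR probe sets 4 were called lower than in MNNG_Low, at -5.90, -3.33, -2.81 and -2.78, and 1 was called higher, at 0.95. The probe sets of EPB41L2 had -4.83, -3.34 and 1.30, and those of FERMT1 -1.48, -1.06 and 0.68, all of them called. The 3 of FERMT2 had -6.87, -3.90 and -2.24, all called lower. Those of RDX had -5.09, -1.99 and -0.58, the last not called. Of the 6 NF2 probe sets 2 were called lower, and 2 pointed upward without a call (0.36 and 0.31). In each of these 6 genes the largest fall was that of the probe set with the highest mean signal, the one that stood for the gene.

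**Figure D5:**
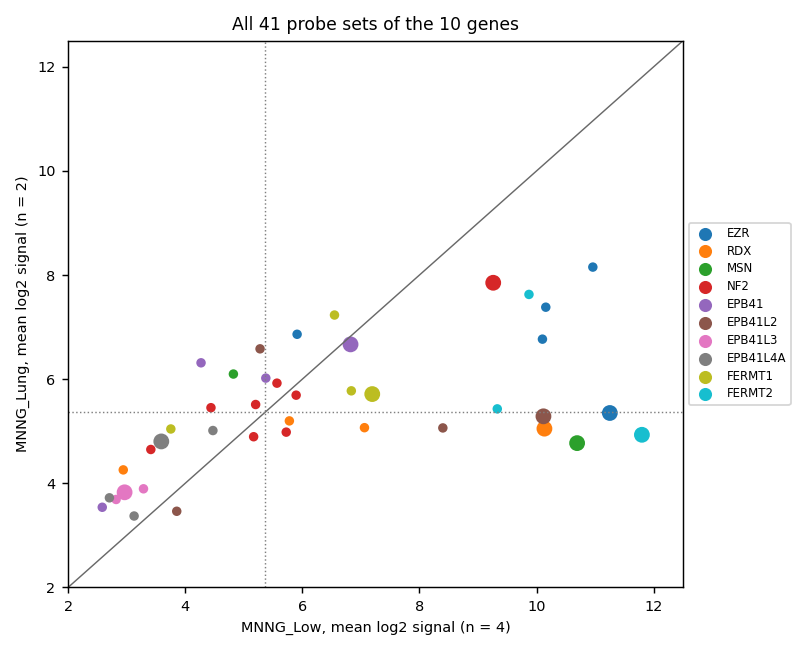
Mean log2 signal on the 2 lung arrays (vertical axis) against the mean of the 4 MNNG_Low arrays (horizontal axis) for all 41 probe sets, coloured by gene, with large points for the probe set that stands for its gene, the line of equality and the filter of 5.36 as dotted lines. Large points of FERMT2, EZR, MSN, RDX and EPB41L2 lie far below the line at 4.77 to 5.35 on the lung arrays, and dim probe sets lie near or above it.

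On the lung arrays 7 of the 10 members had a mean under the filter on the probe set that stands for the gene, beside 17.9% of all genes. In MNNG_Low it was 2 of 10 beside 13.7%. Of all genes 35.1% were called higher on the lung arrays than in MNNG_Low. Of markers of other cells, 7 of 9 tested macrophage and myeloid markers were called higher there, with sums of 2369 to 2821 against 1466 to 1983. So were 5 of 5 endothelial markers, with 849 to 1018 against 270 to 321, and 4 of 4 erythroid markers, with 1190 to 1247 against 319 to 362. Skeletal muscle markers were called higher for 4 of 5, with sums of 1006 to 1397 against 418 to 425. Those of squamous and simple epithelium were higher for 4 of 6 and lower for 1, with sums of 1172 to 1215 against 1387 to 2021. Fibroblast markers were higher for 3 of 7 and lower for 1. The 1 macrophage marker called lower was LAPTM5, at a mean of 5.98 against 10.12. Of the lung epithelium markers 6 of 10 were higher and 2 lower, EPCAM and KRT18, with sums of 1584 to 1723 against 4626 to 4866. Of 7 tested osteosarcoma markers 4 were lower and 0 higher, and VIM, a gene of mesenchymal cells, had a mean of 14.28 beside 14.55 in MNNG_Low. FERMT3, the kindlin of blood cells, had a mean of 6.09 on the lung arrays and of 6.15 to 6.35 in the bone groups. The part of other cells, of the narrower signal range and of RNA quality (GAPDH 3′ minus 5′ of 0.446 and 0.938) in the lung differences was not tested. The probes are human and the host is a mouse.

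Partners and relatives of the 10 genes were counted from 5 lists. Over all genes, 10.6% were called higher and 15.5% lower in MNNG_High than in MNNG_Low. Between the lines the shares higher and lower in 143B were 14.4% and 14.5% in Low cells and 21.4% and 14.7% in High cells. In lung they were 35.1% and 51.9% against MNNG_Low. The list counts are to be read beside these shares, and several are near them. Of 26 tested ERM linkers, kinases and membrane partners, 1 was higher and 3 lower in MNNG_High than in MNNG_Low, with a median of -0.19, the same as over all genes. ICAM1, an adhesion receptor bound by ERM proteins, rose by 0.58 ± 0.17, and PRKCA (-0.62 ± 0.21), a kinase that can phosphorylate them, and PAK2 (-0.50 ± 0.16) fell. Between the lines in Low cells 3 were higher and 5 lower, with ICAM1 at 1.14 ± 0.16, SDC2, a syndecan, at -1.81 ± 0.21 and ICAM2 at -1.01 ± 0.17. In lung 4 were higher and 16 lower than in MNNG_Low, among them CD44, the hyaluronan receptor that ERM proteins bind, at -5.49 ± 0.35.

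Of 23 tested genes of the protein 4.1 membrane skeleton, 5 were higher and 1 lower in MNNG_High, with a median of 0.16. CADM1, the adhesion molecule that protein 4.1B binds, was higher by 2.30 ± 0.39. The next by p were ANK1 (0.79 ± 0.17), SLC4A1 (0.58 ± 0.14) and SPTB (0.48 ± 0.12), the ankyrin, the anion exchanger and the beta spectrin of the red cell. Erythroid markers, a list that also holds SLC4A1, were higher for 2 of 4 tested in the same comparison, with sums of 365 to 535 against 319 to 362, and their part in it was not tested. Between the lines in Low cells 4 were higher, among them ADD3 (1.60 ± 0.19), an adducin, and CADM1 (1.69 ± 0.37), and 2 lower. In lung 11 were higher and 10 lower than in MNNG_Low, beside 35.1% and 51.9% of all genes.

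Of 27 tested genes of the kindlin and integrin adhesion complex, 2 were higher and 4 lower in MNNG_High. PARVA (-0.64 ± 0.16), a parvin, KANK2 (-0.60 ± 0.14) and PXN (-0.38 ± 0.12), paxillin, fell, and ILK, the integrin-linked kinase, rose by 0.45 ± 0.15. In Low cells 4 were higher in 143B, among them the integrins ITGA6 (1.59 ± 0.25) and ITGB5 (1.19 ± 0.14), and 5 lower, among them ITGA3 (-0.71 ± 0.16). On the lung arrays 8 were higher and 18 lower than in MNNG_Low, ITGAV by -5.86 ± 0.29 and PTK2, the focal adhesion kinase, by -5.15 ± 0.28.

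Of 20 tested partners of merlin in the Hippo pathway, 0 were higher and 2 lower in MNNG_High, beside 10.6% and 15.5% of all genes. Those lower were AJUBA (-0.70 ± 0.17) and STK3 (-0.57 ± 0.20). In both fractions 9 were higher and 1 lower in 143B, with a median of 0.40 in Low and 0.59 in High cells, and in Low cells WWC1 (1.74 ± 0.21), which encodes KIBRA, and STK4 (1.21 ± 0.21) were higher and STK3 (-1.19 ± 0.19) lower. On the lung arrays 0 were higher and 17 lower than in MNNG_Low, with the Hippo effectors YAP1 at -6.48 ± 0.34 and WWTR1 at -6.15 ± 0.23.

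Among 36 other tested FERM domain genes, 3 were higher and 6 lower in MNNG_High. Between the lines 13 were higher and 3 lower in Low cells and 15 and 3 in High cells. FRMD3, a relative of protein 4.1, was higher in 143B_Low by 4.24 ± 0.31, FRMD4B by 2.23 ± 0.22 and EPB41L5 by 1.48 ± 0.23. In lung 10 were higher and 19 lower than in MNNG_Low, beside 35.1% and 51.9% of all genes. In none of the 5 lists was a gene called between 143B_High and 143B_Low or in the interaction by limma.

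Ordered by group means, MSN, NF2, RDX and EPB41 were highest in 143B_Low, then 143B_High, then MNNG_Low, with neither 143B fraction called against the other and 143B_High against MNNG_Low not tested. EZR and FERMT2 had the reverse order of lines, with both MNNG bone groups above both 143B groups and the lung arrays last. EPB41L3 and EPB41L4A fell from 143B_Low to 143B_High, then to the lung arrays, MNNG_High and MNNG_Low. FERMT1 was highest in 143B_High (7.99 ± 0.36, SD, n = 3), beside 7.89 ± 0.25 (SD, n = 5) in 143B_Low. The bone groups of EPB41L2 ran from 10.12 ± 0.08 (SD, n = 4) in MNNG_Low to 9.55 ± 0.42 (SD, n = 4) in MNNG_High, and none of the neighbours in its order differed by the test apart from the lung arrays.

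The genes whose signals over the 18 arrays were most like those of each member were found by Pearson correlation, as a description, since the arrays share lines and the lung arrays stand apart. EPB41L3 was most like RTN1 (r = 0.995) and TMEM47 (0.995), and EPB41L4A like RTN1 (0.994) and DCHS1 (0.992), and these hardly moved over the 16 arrays without lung (0.992 to 0.996). MSN was most like LYSMD2 (0.996) and CCND1 (0.995), RDX like TFAM (0.998), NF2 like OCLN (0.981), EPB41 like FZD3 (0.969) and FERMT1 like NEK2 (0.966). FERMT2 was most like CBX1 (0.997), EZR like TAF7 (0.995) and EPB41L2 like NAA16 (0.995), and without the lung arrays these fell to 0.833, 0.941 and 0.922.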

How the data were processed

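The deposited table holds log2 signals, which the authors computed with RMA according to the submitters' processing notes, for 54675 probe sets on 18 arrays. RMA corrects background, normalizes by quantiles and summarises the probes of a set. The sources used here give neither its version nor a genome build. Arrays were checked by the authors with a Bioconductor quality report, per the labels. Of the probe sets 41097 were annotated to 1 gene, 1801 to several and 11777 to none, and only the first kind was used. No detection call was used.

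Groups, tumors and pools were taken from the sample titles. In R 4.3.3, limma 3.58.1 (lmFit, contrasts.fit, eBayes) fitted 5 group means to all 18 arrays at once, with 7 comparisons and Benjamini-Hochberg adjustment over 14418 genes at 0.05. The 30 probe sets of the members were also tested in a fit of all 26556 single-gene probe sets that passed the filter. The counts of member probe sets are to be read beside its totals. In MNNG_High 2531 were called higher and 4246 lower than in MNNG_Low. Between the lines 3603 were higher and 3603 lower in 143B in Low cells, and 5424 and 3270 in High cells. The fits were tested on simulated data. The number of arrays limits the precision. The p-values of the main fit rest on the spread between arrays of a group, shared over the 5 groups, lung included. That fit did not use the pairing of High and Low arrays by tumor. In the bone groups each array was a tumor or a pool. For lung the spread between tumors is not known, since the make-up of the Mix array is not given. Tumor numbers pair the High and Low arrays by the labels. Over genes, the deviations of paired arrays from their group means correlated at r of 0.299 to 0.579 in MNNG, at 0.542 in 143B-1253, and the pools at -0.192 to 0.529 with the Low arrays of their tumors, reading 143B-51&52 as 143B-1251 and 143B-1252 and 143B-54&55 as 143B-1254 and 143B-1255.

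The members, lists and tests were chosen with earlier results of these data known. All 10 members were named with values. From each of 5 pathway lists, up to 4 genes with the smallest p in a comparison were named, and for each member up to 2 genes with the highest r over the 18 arrays. A list was described by its counts and median. Alternatives were leaving out each array, the filter, the scaling, the choice of probe set, array weights, the groups in the fit, and the GAPDH signal, date tag and tumor as terms. The date tag term for the interaction and for the lung arrays against MNNG_Low was added after seeing the data. Gene symbols and promoter windows came from RefSeq tables of GRCh38.p14. Protein sequences were not used here.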

Additional observations from a re-analysis of the deposited data

Results flagged for a closer look

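Dixon's test for a sample that stands apart was applied to each member in each group of 4 or 5 arrays. It picked out 2 of the 30 sets of values, where chance gives about 1 in 20. RDX on the MNNG_Low array of MNNG-1232 was at 9.99, below the other MNNG_Low arrays, which were at 10.16 to 10.20. FERMT1 on the MNNG_Low array of MNNG-1231 was at 7.30, above the other MNNG_Low arrays, which were at 7.14 to 7.17.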

How the results depend on the processing

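Over 1359 values of a member under an alternative, 1257 kept their direction and their side of the threshold, 37 fell below it, 29 passed it, 27 values not called changed sign and 9 called values reversed. The 3 members called between MNNG_High and MNNG_Low were all lower. Counted in either direction, they became 0 after a second quantile normalization and 0 when the date tag was a covariate. The count was 1 with the GAPDH signal as a covariate, 5 after median centring and 5 with only the compared groups in the fit. It was 6 with array weights, 6 with the lung arrays left out, and 8 in the paired fit with the tumor as a replicate block and the lung arrays left out. EPB41L4A was called higher with only the compared groups, with the lung arrays left out and in the paired fit, and EPB41L3 in the paired fit. The share of all genes called in these alternatives was not counted. Leaving out 1 array at a time gave 2 to 5. Of the 8 members called between lung and MNNG_High 5 were left with array weights. Apart from those given in the report, the replicate block changed no call: it gave 0 members for High against Low in 143B and 0 for the interaction, 7 and 8 between the lines, and 9 and 9 for the lung comparisons. With the probe sets that match several transcripts left out, the lung difference of EZR reversed to 0.95 against MNNG_Low and 0.83 against MNNG_High, and that of EPB41L2 to 1.30 and 1.33, because another probe set then stood for the gene. NF2 reversed to 0.043 and 0.47 after the second quantile normalization and to 0.036 and 0.43 as the mean over its probe sets, and FERMT1 to 0.033 against MNNG_High as that mean, which also ended its call against MNNG_Low. For the scaling and covariate alternatives the cause was not tested, and the scaling fits chose the probe set of each gene anew. In the other comparisons the counts stayed within 1.5 times. The lung groups rest on 2 arrays, and levels under 5.36 have uncertain fold changes.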
